A study of Mus musculus with 2 samples.

Results

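The B7 family ligands are cell surface proteins of the immunoglobulin superfamily that antigen-presenting cells (APCs) show to T cells. A set of 7 members was followed here in splenic APCs, found by gene symbol: Cd80, Cd86, Icosl, Cd274, Pdcd1lg2, Cd276 and Vsir. They are 7 of 18193 genes that the array platform names by a single symbol, and they are read by 13 probe sets, of which 4 belong to Cd80, 2 each to Cd86, Icosl and Vsir, and 1 each to Cd274, Pdcd1lg2 and Cd276. The comparison is between 2 groups, each on 1 Affymetrix whole-genome array. In the P25-stimulated group, splenic APCs of wild-type female C57BL/6 mice aged 10 weeks were cultured overnight with the P25 peptide and with CD4+ T cells carrying the P25 T cell receptor. In the non-stimulated group the same kinds of APCs and T cells were kept in medium without peptide. P25 is a peptide of a mycobacterial protein, and the T cells of both cultures recognise it on MHC class II. The APCs were enriched after culture, and RNA from 3 independent experiments was mixed for each array.

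A T cell that meets its antigen receives a further signal from these ligands. CD80 and CD86 bind the activating receptor CD28 and the inhibitory receptor CTLA4, and ICOSL binds ICOS, a receptor that sustains T cell help. PD-L1, encoded by Cd274, and PD-L2, encoded by Pdcd1lg2, bind the inhibitory receptor PD-1, and PD-L1 is known to be induced by interferon-γ from activated T cells. B7-H3, encoded by Cd276, and VISTA, encoded by Vsir, are mostly described as inhibitors of T cells.

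With P25, Cd274 was 2.39-fold higher and Cd86 1.73-fold higher, Vsir was 2.72-fold lower on the brighter of its probe sets, and the other 4 genes lay closer to a ratio of 1. Each value is a MAS5 signal, the Affymetrix summary of a probe set on a linear scale, and each ratio is the P25-stimulated signal over the non-stimulated signal. Since each condition has 1 array, no spread between replicates can be had and no p-value is given, and all ratios describe these 2 arrays. Technical disagreement was gauged from genes with at least 2 probe sets. Over 5293 such genes the log2 ratios of the brighter and the second probe set differed with an SD of 0.58, or 0.46 where the second had a mean signal of 100 or more and 0.68 where it was dimmer. Signals under 10.3, the 40th percentile over both arrays, were set to that floor. Of the 13 probe sets 11 were above the floor on both arrays, and 2 probe sets of Cd80 were below it on both.

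Cd86, the CD28 ligand that B cells, dendritic cells and macrophages raise on activation, was higher with P25 on both of its probe sets. Probe set 1420404_at had a signal of 383 on the P25-stimulated array and 222 on the non-stimulated array. Probe set 1449858_at had 333 on the P25-stimulated array and 168 on the non-stimulated array. The log2 ratios were 0.79 and 0.98, both under the 2-fold threshold of 1, and their difference of 0.19 was matched or exceeded in 68.2% of the 5293 genes. Both were designed on 1 sequence entry, so they are not independent views of the transcript. The dimmer of the pair, at 1.98-fold, passed 2-fold when the arrays were brought to one median (log2 ratio 1.13) or to one level of spike-in controls (1.18), and after loess (1.04). On its brighter probe set Cd86 stayed under 2-fold in the 7 alternative settings of floor and scale, with log2 ratios from 0.75 to 0.98. The floors among these settings could not alter its value.

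Cd80, the other CD28 ligand and the one that binds CTLA4 more tightly, was dim. Its brightest probe set, 1451950_a_at, had a signal of 36.9 with P25 and 30.4 without P25, a log2 ratio of 0.28. Probe set 1432826_a_at had 24.0 with P25 and 21.5 without P25, a log2 ratio of 0.15. Both were slightly higher with P25, by less than the spread between probe sets. Probe sets 1454372_at and 1427717_at lay under the floor, with 2.26 and 5.68 on the P25-stimulated array and 5.56 and 1.55 on the non-stimulated array. They pointed in opposite directions and were given no ratio. The log2 ratio of Cd86 exceeded that of Cd80 by 0.51, and by 0.38 to 0.67 over 7 settings. That range lies on both sides of the SD of 0.58 between probe sets of one gene. It lies below the SD of 0.68 of dim ones, such as those of Cd80. Among these 7, the floor, median scaling and spike-in scaling could not alter the difference.

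Icosl, whose product engages ICOS on T cells that help B cells, was lower with P25 on both probe sets, though within 2-fold. The brighter, 1419212_at, had a signal of 506 on the P25-stimulated array and 656 on the non-stimulated array, a log2 ratio of -0.38. The dimmer, 1426087_at, had 21.3 on the P25-stimulated array and 34.6 on the non-stimulated array, a log2 ratio of -0.70. The first is smaller than the SD of 0.58 between probe sets, and the second is about as large as the SD of 0.68 of dim ones. In the 6 alternative settings that altered its value the sign of Icosl stayed negative, with log2 ratios from -0.54 to -0.18. The log2 ratio of Cd86 was 1.16 above that of Icosl, and this difference ran from 1.11 to 1.42 over the 9 settings. The floors, median scaling, spike-in scaling and the choice by probe set name could not alter it.

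**Figure D1:**
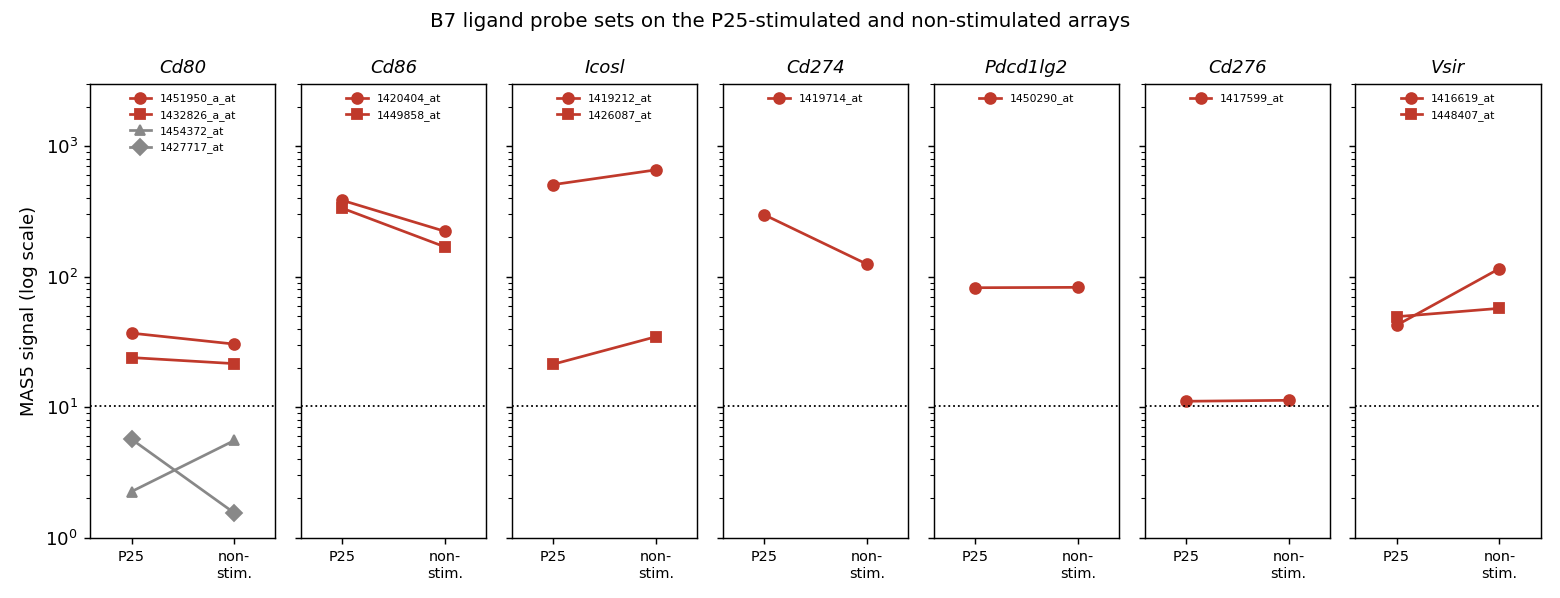
MAS5 signal (log axis) of each of the 13 probe sets on the P25-stimulated array (left in each panel) and the non-stimulated array (right), 1 panel per gene and 1 line per probe set. The dotted line is the floor of 10.3, and grey lines are the 2 Cd80 probe sets under it. Cd274 and both probe sets of Cd86 are higher with P25, Icosl and Vsir are lower, and the lines of Pdcd1lg2 and Cd276 are level.

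The ligands of PD-1 differed from each other. Cd274 had a signal of 298 on the P25-stimulated array and 124 on the non-stimulated array, on its only probe set, 1419714_at. That is a log2 ratio of 1.26, past 2-fold and larger than the SD of 0.46 between brighter probe sets of one gene. Cd274 passed 2-fold in each of the 5 alternative settings that could alter its value (both scalings, quantile normalization, loess and the pseudocount), with log2 ratios from 1.16 to 1.45. The floors and the choice of probe set could not alter it. Pdcd1lg2, which dendritic cells and macrophages express more narrowly than Cd274, had 82.1 on the P25-stimulated array and 82.7 on the non-stimulated array, a log2 ratio of -0.01. Its sign changed with the scaling, to 0.14 with median scaling, 0.18 with spike-in scaling, 0.13 with quantile normalization and 0.17 after loess. The log2 ratio of Cd274 exceeded that of Pdcd1lg2 by 1.27, a 2.41-fold difference in ratio that no common scaling of an array can alter. Of the 9 settings only the pseudocount, quantile normalization and loess could alter this difference, and its lowest value was 1.17. With 1 probe set for each gene, disagreement between probe sets could not be examined for either.

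Cd274 and Pdcd1lg2 lie next to each other on chromosome 19, with 1 annotated gene that does not code for protein, Gm36043, between their starts. The 250 bases before the start site that RefSeq's table gives on GRCm38.p6 are shown for this pair of neighbours with different ratios, and for Vsir, the member that was 2-fold lower. Letters in capitals match a motif searched on both strands. The motifs were the interferon-stimulated response element core GAAANNGAA, the interferon-γ-activated site TTCNNNGAA and the κB motif. The windows are chr19:29367188-29367437 for Cd274, chr19:29410669-29410918 for Pdcd1lg2 and chr10:60346601-60346850 for Vsir, all on the + strand.
Cd274: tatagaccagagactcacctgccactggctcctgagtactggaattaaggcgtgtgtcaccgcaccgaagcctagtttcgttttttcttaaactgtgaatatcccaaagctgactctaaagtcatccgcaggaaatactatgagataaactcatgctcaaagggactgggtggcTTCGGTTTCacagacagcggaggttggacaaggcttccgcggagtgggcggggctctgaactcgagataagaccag
Pdcd1lg2: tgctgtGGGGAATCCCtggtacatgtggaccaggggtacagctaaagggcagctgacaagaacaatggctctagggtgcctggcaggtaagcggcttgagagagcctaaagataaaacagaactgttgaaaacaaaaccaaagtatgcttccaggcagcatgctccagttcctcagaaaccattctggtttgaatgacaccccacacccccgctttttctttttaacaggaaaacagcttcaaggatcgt
Vsir: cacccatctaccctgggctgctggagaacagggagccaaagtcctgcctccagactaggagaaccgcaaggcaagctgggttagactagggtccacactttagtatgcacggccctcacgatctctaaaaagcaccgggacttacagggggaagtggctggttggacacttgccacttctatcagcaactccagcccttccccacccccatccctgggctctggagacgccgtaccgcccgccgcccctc

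In the Cd274 window the response element core was found 1 time, as TTCGGTTTC on the given strand, from 76 to 68 bases before the start. The Pdcd1lg2 window held 1 match to the κB motif, GGGGAATCCC, from 244 to 235 bases before the start. The Vsir window held none of the 3, and no member's window held the interferon-γ-activated site. Of 32851 windows of this length that RefSeq gives, 7.13% hold the response element core, 3.9% the κB motif and 7.02% the interferon-γ-activated site. Windows were found for 6 of the 7 genes, all but Cd86. The windows of Cd80, Icosl and Cd276 held no match to any of the 3. A match is a run of letters and not a shown binding site.

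Vsir, which myeloid cells express most strongly among blood cells, was lower with P25, but its probe sets disagreed on how much. Probe set 1416619_at had a signal of 42.4 on the P25-stimulated array and 115 on the non-stimulated array, a log2 ratio of -1.44. Probe set 1448407_at had 49.3 on the P25-stimulated array and 57.1 on the non-stimulated array, a log2 ratio of -0.21. Both were designed on 1 sequence entry, and only the first passed 2-fold. The difference of 1.23 between them was matched or exceeded in 244 of 5293 genes (4.61%), and in 202 of the 2677 genes whose second probe set had a mean signal under 100 (7.55%). With the median of both probe sets Vsir had a log2 ratio of -0.83 and did not pass 2-fold. It did in the other 5 settings that altered its value, with log2 ratios up to -1.17. On the dimmer probe set the log2 ratio came to -0.02 with spike-in scaling.

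**Figure D2:**
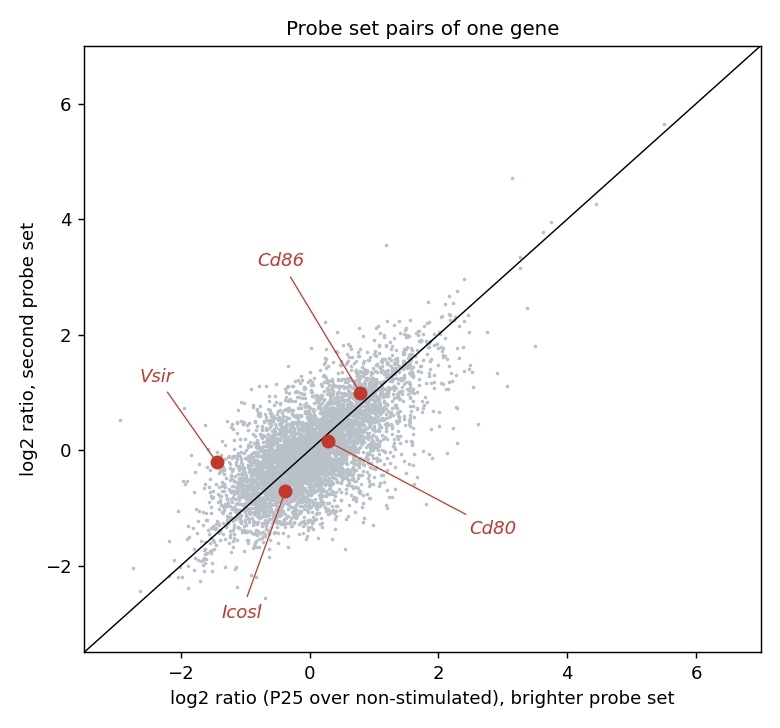
Log2 ratio of the brighter probe set (x axis) against that of the second probe set (y axis) for 5293 genes that have 2 probe sets over the floor of 10.3 on each array, with the line of equality. Cd80, Cd86 and Icosl (red) lie near the line, while Vsir is off it, at -1.44 on the brighter and -0.21 on the second probe set.

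Cd276 was barely above the floor, with 11.1 on the P25-stimulated array and 11.3 on the non-stimulated array on its only probe set, 1417599_at. Its log2 ratio was -0.02, which turned to 0.12 under median scaling and to 0.17 under spike-in scaling. So dim a probe set gives little sign of a change in either direction.

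Over the family, 1 of 7 genes (Cd274) was at least 2-fold higher with P25, against 9.43% of 12897 measured genes, and 1 of 7 (Vsir) was at least 2-fold lower, against 7.22%. These shares are near the background, so the family as a whole did not stand out. The median log2 ratio of the 7 genes was -0.01, beside 0.02 over all measured genes. By probe set, 5 of the 11 above the floor had a log2 ratio above 0 and 6 below. That is near the split over all 24042 measured probe sets with a single gene, 11809 above 0 and 12233 below. Among all measured genes 5.81% had a higher ratio than Cd274 and 14.3% a higher ratio than Cd86, while 2.40% had a lower ratio than Vsir and 27.6% a lower one than Icosl. Over the 29549 probe sets above the floor on at least 1 array, named or not, the median signal was 64.3 with P25 and 71.1 without P25. Scaling both to one level shifted the middle of all genes' log2 ratios by 0.13, and spike-in scaling by 0.17. With these scalings 71.0% and 74.9% of the genes past 2-fold were higher with P25, against 56.6% on the deposited scale. Relative to the median of all genes Cd274 was at 1.24 on the deposited scale and 1.25 and 1.26 on these scales. Both scalings shift the log2 ratios of all genes above the floor alike, so they could hardly alter this relative value.

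**Figure D3:**
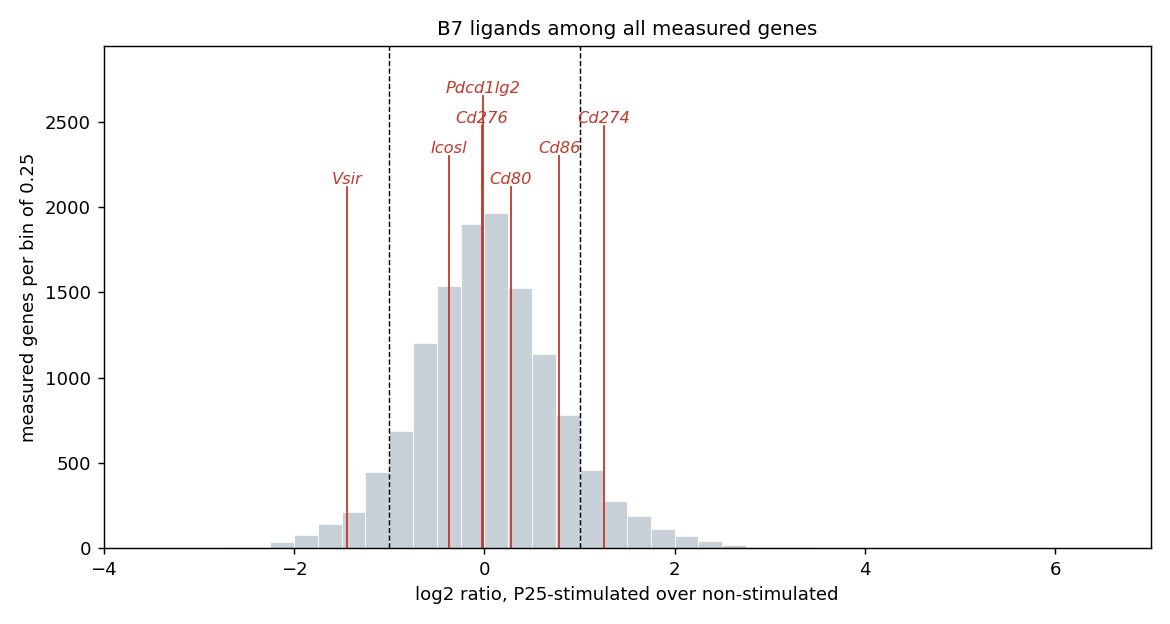
Number of measured genes (y axis) per bin of log2 ratio of P25-stimulated over non-stimulated (x axis), with the 7 B7 ligands as red lines and 2-fold as dashed lines. Cd274 at 1.26 and Vsir at -1.44 lie outside the dashed lines and the other 5 genes between them.

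The receptors of these ligands were dim apart from Selplg, which encodes PSGL-1, a described partner of VISTA present on most leukocytes. On their brightest probe sets, no receptor gene of 6 measured passed 2-fold upward and 2 passed it downward, against 9.43% and 7.22% of all measured genes. Their median log2 ratio was -0.61. Selplg had 313 on the P25-stimulated array and 704 on the non-stimulated array, and was 2.25-fold lower. Cd28 had 22.5 on the P25-stimulated array and 56.0 on the non-stimulated array on its brightest probe set, 2.49-fold lower, and its other probe set was at -0.61 on the log2 scale. Ctla4 (-0.68), Icos (-0.55), Rgmb (-0.25), which encodes a partner of PD-L2, and Pdcd1 (0.19), which encodes PD-1, were within 2-fold on the log2 scale, with signals under 40 on both arrays. The 5 measured probe sets of Rgmb disagreed, from -0.84 to 1.48, the last with the non-stimulated array at the floor. Igsf11, another described partner of VISTA, was below the floor on both arrays.

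T cells were in both cultures, and their markers were few on these arrays. Of 10 T cell markers named on the array, 3 (Cd3e, Cd3d and Cd4) were below the floor on both arrays, and of 7 measured 1 was 2-fold lower and none 2-fold higher, against 7.22% and 9.43% of all measured genes. The lowest was Cd2, with 339 on the P25-stimulated array and 1140 on the non-stimulated array, and the highest was Cd3g, with 21.6 on the P25-stimulated array and 11.1 on the non-stimulated array. Their summed signal was 484 with P25 and 1278 without P25, and without Cd2, which mouse B cells also express, it was 145 with P25 and 138 without P25. Their part in the receptor values was not tested.

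Other genes related to B7 in sequence gave little signal. Of 5 genes named on the array, Btnl2, a butyrophilin-like inhibitor of T cells, was measured, with 43.6 on the P25-stimulated array and 47.0 on the non-stimulated array. Vtcn1, which encodes B7-H4, Ildr2 and Btnl9 were below the floor on both arrays on every probe set. Btn1a1 was below it on the probe set of highest mean log2 signal, while another had 12.3 on the P25-stimulated array and lay below the floor on the non-stimulated array.

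Among costimulatory and coinhibitory ligands outside the family, 4 of 12 measured genes passed 2-fold upward and 1 downward, against 9.43% and 7.22% of all measured genes. Their median log2 ratio was 0.31. The higher ones were the adhesion ligand gene Icam1 (log2 ratio 2.39), the 4-1BB ligand gene Tnfsf9 (2.08), Cd70, which was under the floor without P25 and at least 3.81-fold higher, and Cd40 (1.67), whose product receives the signal of CD40 ligand from T cells and is known to raise Cd80 and Cd86. Each of these 4 had a larger ratio than Cd274. Ceacam1, which encodes an inhibitory adhesion receptor, had 107 on the P25-stimulated array and 347 on the non-stimulated array, 3.24-fold lower, and the log2 ratios of its 7 measured probe sets were between -2.27 and -0.71. Cd24a, a small surface sialoglycoprotein gene, was at -0.42 on its brightest probe set and reached 0.53 on another.

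The route from the interferon-γ receptor to Irf1 is the described inducer of Cd274. On it 2 of 9 measured genes passed 2-fold upward and none downward, against 9.43% and 7.22% of all measured genes. The list's median log2 ratio was 0.44. Irf1, the transcription factor that acts on interferon-stimulated response elements, had 3047 on the P25-stimulated array and 482 on the non-stimulated array, a log2 ratio of 2.66. Socs1, which feeds back on the kinases, had a log2 ratio of 4.04. Stat2, a signal transducer of type I interferon, followed at 0.86. The receptor chain gene Ifngr2 and the kinase gene Jak1 were lowest, at log2 ratios of -0.80 and -0.79, and another probe set of Ifngr2 was at 0.61.

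Among 9 measured genes of CD40 and NF-κB signalling, a described route to Cd80 and Cd86, 2 passed 2-fold upward and 1 downward, against the same 9.43% and 7.22%. The list's median log2 ratio was 0.35. Nfkb2, the precursor of the p52 subunit, was 2.31-fold higher and Traf1, an adaptor of TNF receptors, 2.08-fold higher. Traf2, an adaptor of CD40, followed at a log2 ratio of 0.60. Map3k14, the kinase of the alternative NF-κB route, was 2.32-fold lower, and Traf6 was at -0.53. The second probe set of Map3k14 was at -0.51 and that of Nfkb2 at 0.80, both within 2-fold, while that of Traf1 was higher, at 2.16. The 4 probe sets of Traf6 had both signs, up to 0.58.

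Among 7 measured genes that act on the ligands after transcription, 1 passed 2-fold upward and 1 downward, near the shares of all measured genes (9.43% and 7.22%). Their median log2 ratio was 0.15. Marchf1, the ubiquitin ligase that removes CD86 and MHC class II from the surface, had 381 on the P25-stimulated array and 845 on the non-stimulated array, with log2 ratios of -1.15 and -2.03 on its 2 probe sets. Cd83, whose product opposes that ligase in mouse APCs, had 3217 on the P25-stimulated array and 1392 on the non-stimulated array, 2.31-fold higher. For PD-L1, Cmtm6, which in human cells keeps it at the surface, was at a log2 ratio of 0.43 (its other probe set gave -0.27), Stub1, a ubiquitin ligase that acts on it, at 0.32, and Hip1r, which in human cells sends it to lysosomes, at -0.82. Surface protein was not measured.

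**Figure D4:**
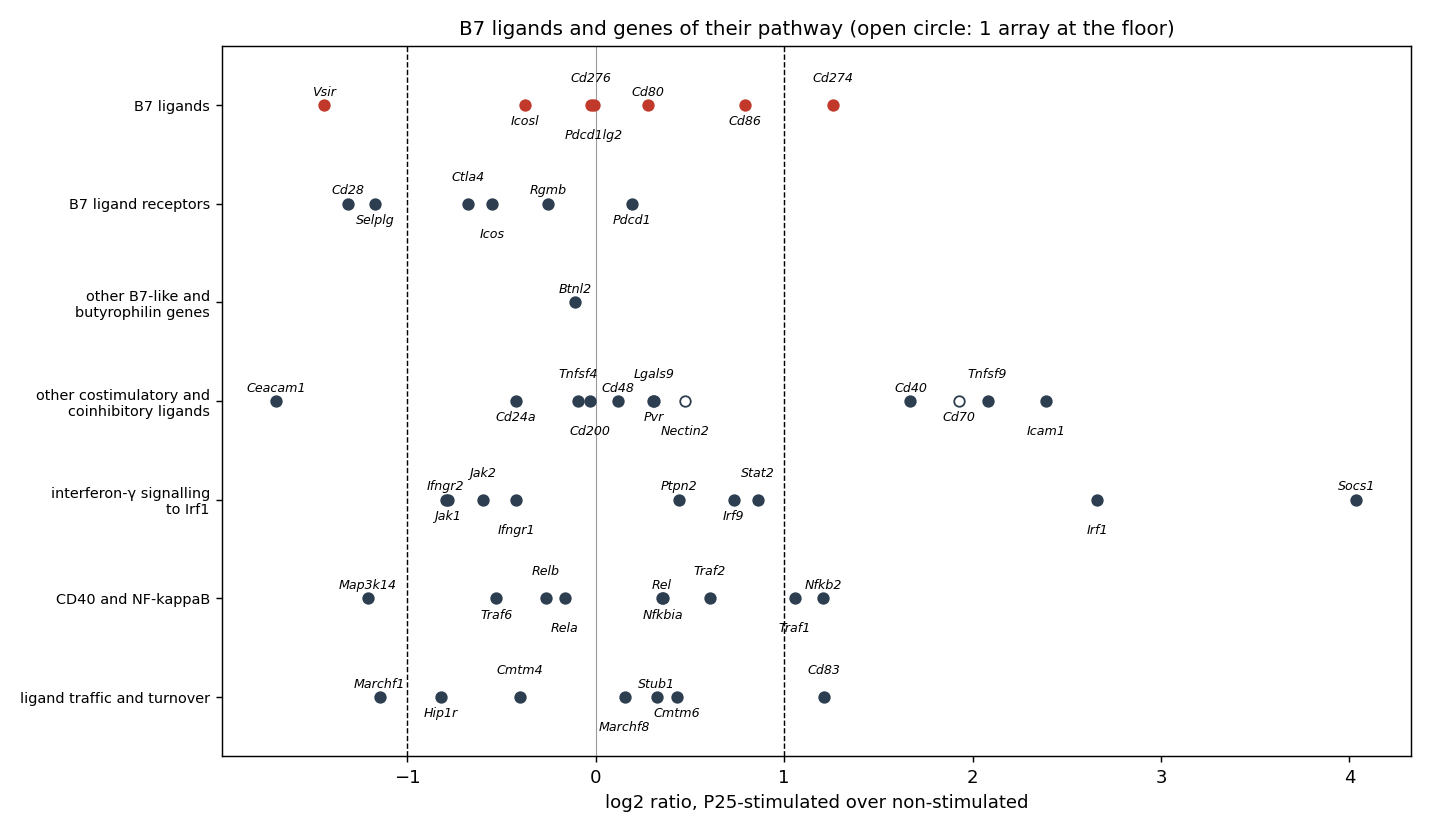
Log2 ratio of P25-stimulated over non-stimulated (x axis) for the 7 B7 ligands (red) and the measured genes of 6 related lists (dark), 1 row per list, with 2-fold as dashed lines and open circles where 1 array was at the floor. Socs1 (4.04), Irf1 (2.66) and Icam1 (2.39) lie beyond Cd274 (1.26), and Ceacam1 (-1.70) beyond Vsir (-1.44).

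The APCs were a mixture of cell types, and most markers of macrophages, monocytes and neutrophils were lower with P25 on the same arrays. In such bulk RNA fewer cells of a type and less RNA per cell cannot be told apart. In the macrophage and monocyte list 8 of 11 measured markers passed 2-fold downward and none upward, against 7.22% and 9.43% of all measured genes, with Fcgr1 highest (log2 ratio 0.49) and Ccr2 lowest (at least 4.09-fold lower). Their summed signal was 1417 with P25 and 3344 without P25, and C1qa and C1qc were below the floor on both arrays. Another probe set of Ccr2 had a log2 ratio of -0.13, and another of Fcgr1 had -0.42. In the neutrophil list 7 of 8 measured markers passed 2-fold downward, against the same 7.22%, with Mpo lowest (-1.98) and S100a8 highest (-0.60), and their summed signal was 6901 with P25 and 12788 without P25. Vsir was lower beside these markers, and their part in its ratio was not tested.

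B cell markers had signals of 150 or more on both arrays, and 1 of 9 measured, Blk (log2 ratio -1.36), was at least 2-fold lower, near the 7.22% of all measured genes, with Ms4a1, which encodes CD20, highest at 0.23. Their median log2 ratio was -0.63, below the -0.38 of Icosl, and their summed signal was 21819 with P25 and 30029 without P25. Of 8 measured markers of conventional dendritic cells 2 passed 2-fold upward, Zbtb46 (2.52) and Ly75 (2.11), and Sirpa (-1.43) passed it downward, against 9.43% and 7.22% of all measured genes. Their median log2 ratio was -0.75, their summed signal was 1145 with P25 and 1674 without P25, and Xcr1 was below the floor on both arrays. Most of that sum was Ccr7 alone, with 661 with P25 and 1261 without P25, so the fall of the sum rests on this gene. Another probe set of Sirpa was at -0.58, within 2-fold. Of 5 markers of plasmacytoid dendritic cells 2 were 2-fold higher and 2 lower on their brightest probe sets, against the same shares. They ran from Ccr9 (-1.26) to Bst2 (2.09), which interferon also induces. Klk1 (1.29) was the other higher gene and Siglech (-1.07) the other lower one. The 4 measured probe sets of Klk1 had both signs, down to -0.61, and the 5 of Ccr9 reached -0.02. The summed signal of these markers was 1815 with P25 and 1596 without P25. Most of it came from Tcf4 (1134 with P25 and 1265 without P25) and Bst2 (480 with P25 and 113 without P25), so it says little of the other markers. The part of cell composition in the ligand ratios was not tested.

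**Figure D5:**
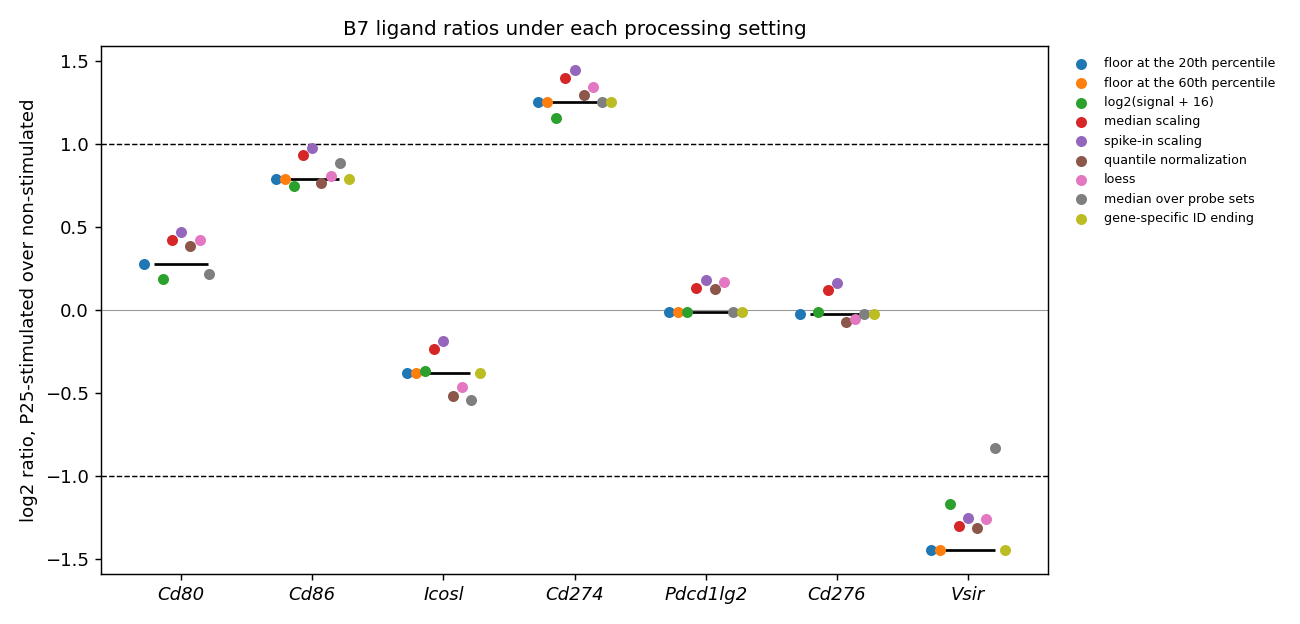
Log2 ratio of P25-stimulated over non-stimulated (y axis) of each B7 ligand as reported (black bar) and under 9 alternative settings (coloured points), with 2-fold as dashed lines. Cd274 stays above 1, where 4 of its 9 settings could not alter its value. Vsir stays below -1 except where the median of its probe sets was taken, and 3 of its 9 settings could not alter it. Cd80 and Cd276 have fewer points where they fell under the floor or had no usable probe set.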

How the data were processed

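The deposited values are MAS5 signal intensities, 1 per probe set and array, on a linear scale and never negative. Per the submitters' processing notes the software was GCOS. MAS5 subtracts mismatch signal and scales each array. Its scaling target is not given in the sources used here. RNA was column-purified and labelled with biotin, per the labels' protocols. Depth is not defined for arrays, and their number, 1 per condition, limits the precision. Median signals were 18.0 (P25-stimulated) and 18.4 (non-stimulated) over 45037 probe sets other than controls, and 42 control probe sets for spiked-in RNA had log2 ratios with a median of -0.19 (SD 0.28). Array batch and treatment cannot be told apart, with 1 array each.

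Groups came from the treatment label. Signals under the 40th percentile (10.3) were set to it before log2, and a ratio with 1 array at this floor is a bound, written "at least". Probe sets with a single gene symbol in the platform annotation (34945, updated through RefSeq's GRCm38.p6 table) were used, and the one of highest mean log2 signal stood for its gene. Of 18193 genes 12897 were above the floor on at least 1 array, and 2-fold was the threshold. Other settings were floors at the 20th and 60th percentiles, log2(signal + 16), scaling to one median (over probe sets above the floor on at least 1 array) or one spike-in level, quantile normalization, loess, the median over probe sets, the most gene-specific probe set name, and a 1.5-fold threshold. Named genes are all 7 members, the 3 highest and 2 lowest of each pathway list (all, where 6 or fewer were measured), the highest and lowest of each marker list, and any gene a sentence counts. Of 116 listed genes 105 were named on the array, and the others are not analysed here. The members and lists were chosen with earlier results of these data known. The ratio code was tested on simulated data. Python 3.11.15, pandas 2.3.3, numpy 2.4.6, statsmodels 0.14.6 and matplotlib 3.10.9 were used.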

Additional observations from a re-analysis of the deposited data

How the results depend on the processing

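The count of B7 ligands at least 2-fold higher was 1 (Cd274) in each setting run with the 2-fold threshold, of which 4 could not alter the value of Cd274, and 2 (with Cd86) at a 1.5-fold threshold. The count at least 2-fold lower was 1 (Vsir), and 0 by the median over the probe sets of each gene. The median log2 ratio of the family ran from -0.02 to 0.18 over the planned settings, and was 0.21 over the 4 genes with a signal of 100 or more on at least 1 array, a restriction chosen after the data were seen. Of 133 ratios of single genes and probe sets recomputed, 1 (Vsir by the median over its probe sets, -0.83) moved by more than the spread of 0.58 between probe sets, and none of a gene past 2-fold changed sign. Many of the 133 could not move. Neither floor altered any ratio that it kept, and the choice by probe set name altered none. The median over probe sets could not alter a gene with 1 measured probe set. In the settings of floor and scale, the probe set that stood for a gene was counted for the gene and for itself. Cd80 and Cd276 gave no ratio with the floor at the 60th percentile (38.6), and Cd80 none on its most gene-specific probe set. Over all genes, 2438 were 2-fold higher and 1933 lower with the floor at the 20th percentile, against 1216 and 931 as reported. The lower count was 591 with the floor at the 60th percentile, 576 with log2(signal + 16) and 581 with spike-in scaling. Dim probe sets limit what can be said of Cd80 and Cd276. No paired analysis was possible because each condition has 1 array, and no array could be left out for the same reason.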
